A study of Mus musculus with 9 samples.

Results

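The genes of the insulin-like growth factor (IGF) axis were followed in the non-epithelial cells of mammary glands from ad libitum-fed and calorie-restricted (CR) mice. They are the ligands Igf1 and Igf2, the receptors Igf1r and Igf2r, and the binding proteins Igfbp2, Igfbp3, Igfbp4, Igfbp5, Igfbp6 and Igfbp7. They were taken by gene symbol, and all 10 were present among the 11063 genes of the table. The 9 samples came from female FVB/N mice that were 6 weeks old at the start. Of these, 4 were fed ad libitum (numbered 2 to 5) and 5 were kept under CR for 8 weeks (numbered 1 to 5), on 65% of the food of their ad libitum-fed counterparts by the submitters' labels and on 70% by the study's methods. From the #4 glands of each mouse, 15000 Lin-CD49fnegCD24neg cells were sorted, after a magnetic depletion of endothelial and of some hematopoietic and fibroblast cells, and 1 library was made per mouse. By the study's methods the restricted food came with a vitamin and mineral supplement, so that food amount and supplement cannot be told apart here. All mice were of the same strain, carried no stated allele and received no other stated agent. The sorted population is defined by the absence of CD49f and CD24 and is therefore a mixture of cell types.

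IGF1 and IGF2 are small secreted hormones related to insulin. Both activate IGF1R, a receptor tyrosine kinase that signals through insulin receptor substrates, PI3 kinase, AKT and mTOR to cell growth and survival, whereas IGF2R takes up IGF2 for breakdown in lysosomes. Secreted binding proteins hold the ligands in blood and tissue, lengthen their life and limit their access to IGF1R until proteases cleave them. In the mammary gland, growth hormone acts on the stroma to raise local IGF1, which drives ductal growth, and circulating IGF1 from the liver is known to fall under CR.

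Molecules were counted at the 3′ ends of transcripts, so that a gene's count does not grow with its length, and all levels below are molecule counts divided by the DESeq2 size factor of the library ("normalized counts"). Counts recovered from these values summed to 382877 to 817030 (median 480190) per ad libitum library and to 785301 to 1485963 (median 974109) per CR library, so that the CR libraries were the deeper ones except that ad libitum mouse 2 exceeded CR mouse 1. Where a library had a count of 0, the limit was 3 counts, or 2.69 to 5.85 normalized counts in ad libitum libraries and 1.55 to 2.90 in CR libraries, for counting error only. Transcripts of the Fibroblasts list (16 of 16 genes in the table) summed to 7945 to 14810 normalized counts in ad libitum-fed mice, lowest in mouse 4, and to 13850 to 17848 in CR mice, with 6 of 15 tested genes higher and 0 lower. The genes of this list did not move alike. Dcn, among the 6, had means of 3729 in ad libitum-fed and 5983 in CR mice. The 9 that did not pass included Col1a1 (1103 and 1085), Col1a2 (1331 and 1367) and Col3a1 (596 and 593). T cell transcripts (12 of 14 in the table) summed to 1924 to 3201 and to 224 to 423, and all 12 were lower in CR mice. Mast cell transcripts (6 of 8) summed to 345 to 630 and to 29.1 to 133, endothelial transcripts (9 of 10) to 112 to 156 and to 86.2 to 167, and adipocyte transcripts (6 of 9) to 55.4 to 179 and to 52.3 to 226. The endothelial genes moved in both directions within their sum, as 2 of the 4 tested were higher in CR mice (Tek and Eng) and 1 was lower (Pecam1). Of 11 epithelial markers only Krt18 and Cdh1 were in the table, both were at 0 in some libraries, and their sum was 0 to 9.88 normalized counts in ad libitum-fed and 0 to 8.26 in CR mice. The cells were thus non-epithelial by these markers, as labelled, and the transcript sums of some cell types, such as T cells and mast cells, differed between the diets. In such bulk samples, fewer cells of a type and less RNA per cell cannot be told apart, and the part of these cell types in the differences below was not tested except where a value is given.

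CR and ad libitum-fed mice were compared with limma on log2(normalized count + 1) over the 6815 genes with at least 10 normalized counts in at least 4 libraries, adjusted by the Benjamini-Hochberg procedure, and a gene was taken as changed at an adjusted p of at most 0.05. Because of the added 1, fold changes of genes with few counts come out too small. All 10 IGF axis genes passed the filter. Of these, Igf1, Igf2 and Igfbp3 were higher in CR mice, 0 were lower and 7 did not pass. Among all tested genes, 7.98% were higher and 9.14% were lower, 17.1% in all. At an unadjusted p under 0.05, Igfbp6 joined the genes above and the number lower was still 0, as it was by DESeq2 and edgeR on recovered counts. The median log2 fold change was 0.42 over the 10 genes and 0.07 over all tested genes, and 9 of the 10 had a value above 0, although only 5 did when libraries were scaled to their Fibroblasts list counts and 8 when scaled to library totals. Complete separation of the diets, with all CR mice above all ad libitum-fed mice, was seen for Igf1 and Igfbp3, and separation in the opposite direction for 0 of the 10. Over all tested genes these shares were 7.29% and 9.63%, or 16.9% in either direction.

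**Figure D1:**
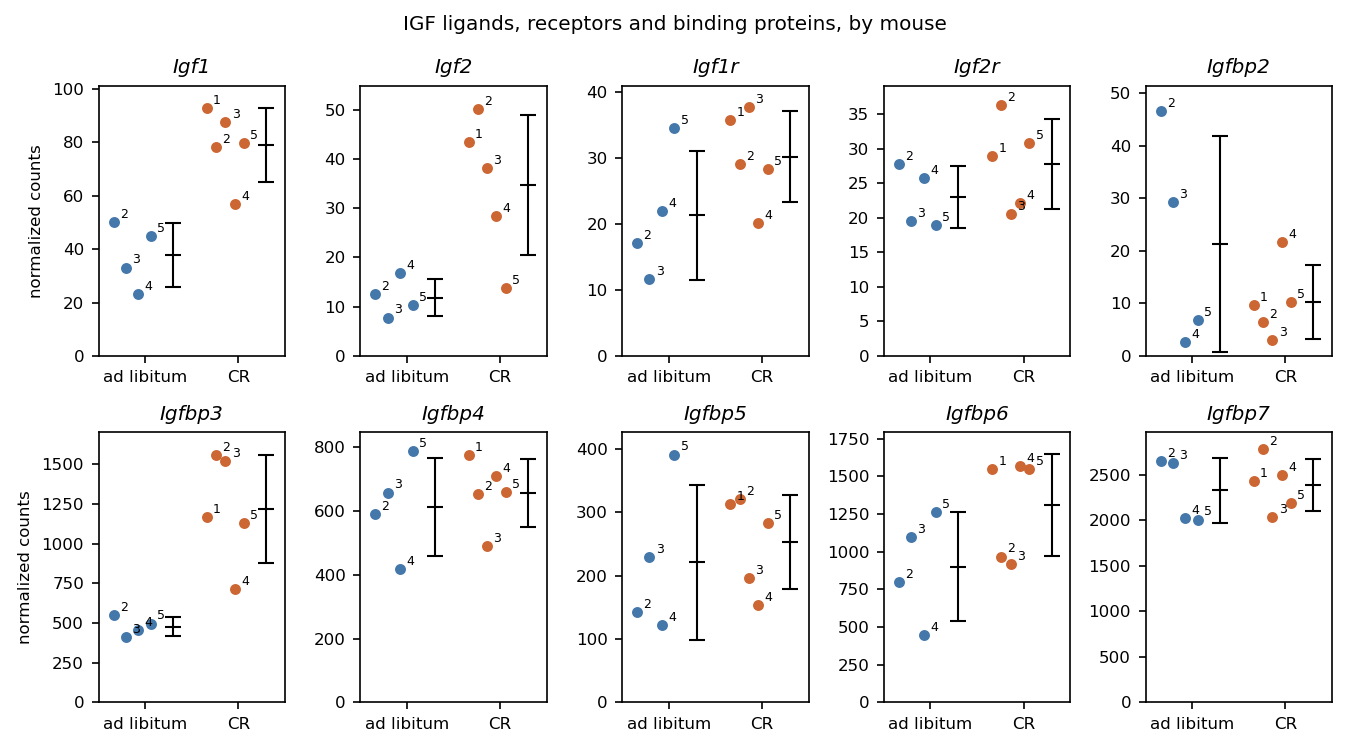
Normalized counts of the 10 IGF axis genes in each mouse, ad libitum-fed (blue, mice 2 to 5) and CR (orange, mice 1 to 5). Bars beside the points show the mean and SD. The 5 CR values lie above all 4 ad libitum values for Igf1 and Igfbp3, and for Igf2 all CR values except that of mouse 5 do.

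The 3 genes that rose lie on separate chromosomes. Igf1 occupies chr10:87858265-87937047 on the plus strand of GRCm38, Igf2 chr7:142650768-142666816 on the minus strand and Igfbp3 chr11:7206086-7215498 on the minus strand. Their promoters are printed because these genes rose with CR. Each window runs from 250 bases before to 50 after an annotated RefSeq start (GRCm38.p6), 5′ to 3′ on the strand of the gene, with matches to a searched motif in capitals. For Igf2, which has 4 such windows, the one nearest the 3′ end of the gene is shown. The windows are chr10:87860861-87861160 for Igf1, chr7:142657447-142657746 for Igf2 and chr11:7213874-7214173 for Igfbp3.
Igf1: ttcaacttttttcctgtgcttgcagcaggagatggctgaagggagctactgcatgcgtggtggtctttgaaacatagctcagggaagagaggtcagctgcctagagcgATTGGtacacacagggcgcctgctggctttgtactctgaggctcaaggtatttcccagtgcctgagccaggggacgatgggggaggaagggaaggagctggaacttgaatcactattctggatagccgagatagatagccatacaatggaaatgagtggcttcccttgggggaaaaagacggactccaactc
Igf2: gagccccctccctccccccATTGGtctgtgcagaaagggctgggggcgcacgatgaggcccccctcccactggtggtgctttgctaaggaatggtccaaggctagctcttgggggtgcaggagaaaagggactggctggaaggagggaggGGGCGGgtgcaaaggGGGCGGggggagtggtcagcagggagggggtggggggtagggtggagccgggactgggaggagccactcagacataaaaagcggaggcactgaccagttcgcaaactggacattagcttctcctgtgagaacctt
Igfbp3: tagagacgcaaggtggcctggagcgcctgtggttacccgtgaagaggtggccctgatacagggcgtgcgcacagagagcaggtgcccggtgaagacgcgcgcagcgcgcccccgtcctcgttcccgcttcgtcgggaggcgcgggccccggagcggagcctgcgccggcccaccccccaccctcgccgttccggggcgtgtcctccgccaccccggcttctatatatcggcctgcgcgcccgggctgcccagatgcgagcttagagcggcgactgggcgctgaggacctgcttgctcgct
The motifs searched, on both strands, were the TATA box (TATAAA), the GC box (GGGCGG), the AP-1 site (TGACTCA), a forkhead site (GTAAACA), the CCAAT box (CCAAT) and the E-box (CACGTG). The Igf1 window held 1 CCAAT box, on the opposite strand and so printed as ATTGG, 142 bases before the start. The Igf2 window held 2 GC boxes and, also as ATTGG, 1 CCAAT box 231 bases before the start. The Igfbp3 window, with a GC content of 71.7% against a median of 52.7% over all windows, held 0 of these motifs in the exact letters given. Variant spellings were not searched, so that the tatatat in this window was not counted. No motif was shared by all 3 windows. CCAAT is a short sequence and was found in 37.4% of all 32851 windows, the GC box in 35.7%, the TATA box in 13.6%, the E-box in 7.15%, the AP-1 site in 5.20% and the forkhead site in 3.65%. Over the 14 windows of the 10 genes, a GC box was present in 6 (of Igf1r, Igf2, Igf2r, Igfbp2 and Igfbp7), CCAAT in 3 (Igf1, Igf2 and Igfbp6), a TATA box in 2 (Igfbp4 and Igfbp6), an E-box in 2 (Igf2r and Igfbp2), an AP-1 site in 1 (Igfbp2) and the forkhead site in 0. A match is a description of letters and not of binding.

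Igf1, the ligand that mediates much of the action of growth hormone, was about 2-fold higher in CR mice. Its level was 50.3, 33.1, 23.2 and 44.8 normalized counts in mice 2 to 5 fed ad libitum, a mean of 37.9 ± 12.1 (SD, n = 4), against 92.8, 78.4, 87.6, 56.8 and 79.8 in CR mice 1 to 5, a mean of 79.1 ± 13.8 (SD, n = 5). Every CR mouse lay above every ad libitum-fed mouse, the nearest pair being CR mouse 4 and ad libitum mouse 2. The log2 fold change was 1.08 (95% interval 0.54 to 1.63), which is 2.12-fold (1.45 to 3.09), with an adjusted p of 0.00705 by limma. Igf1 passed without each library in turn, with adjusted p-values of 0.0057 to 0.0266. The exact two-sided permutation test over all assignments of the mice gave p = 0.0159, where the smallest p it can give is 0.00794. When each library was scaled to its summed Fibroblasts list counts in place of the deposited size factor, a scaling that lowered the median log2 fold change of all tested genes by 0.48, the log2 fold change of Igf1 was 0.60 (95% interval −0.02 to 1.22) with an adjusted p of 0.17.

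Igf2, a fetal growth factor expressed from the paternal allele, was also higher in CR mice, but with more spread. It measured 12.6, 7.79, 16.8 and 10.3 normalized counts in mice 2 to 5 fed ad libitum, a mean of 11.9 ± 3.80 (SD, n = 4), against 43.5, 50.1, 38.2, 28.4 and 13.7 in CR mice 1 to 5, a mean of 34.8 ± 14.2 (SD, n = 5). CR mouse 5 fell within the ad libitum range and the other 4 CR mice lay above it. The log2 fold change was 1.40 (95% interval 0.60 to 2.20), the adjusted p by limma was 0.0157 and the exact permutation p was 0.0238. Without CR mouse 2 the log2 fold change was 1.24 and the adjusted p 0.0505, and with scaling to the Fibroblasts list it was 0.93 with an adjusted p of 0.155. These were low counts, of 4 to 65 recovered molecules per library. Of the 1000 bases at the 3′ end of Igf2, 997 are shared in the GENCODE annotation with Gm49394, a readthrough gene on the same strand, and the products of both cannot be told apart here.

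Markers of pericytes and smooth muscle, and of some other cell types, varied among the CR mice together with Igf2. Transcripts of the pericyte and smooth muscle list (9 of 10 genes in the table, Acta2 and Mcam at 0 in some libraries) summed to 792, 706, 342, 216 and 229 normalized counts in CR mice 1 to 5 and to 220 to 316 in ad libitum-fed mice. Macrophage transcripts (9 of 13 in the table, with Cd68, Lyz2, C1qa, C1qc and Fcer1g at 0 in some libraries) summed to 189, 337, 257, 83.1 and 53.2 in CR mice 1 to 5 and to 150 to 403 in ad libitum-fed mice. Most of the macrophage sum in the CR mice was Cd14, at 102, 305, 218, 45.4 and 34.3 normalized counts in CR mice 1 to 5 and 76.3 to 142 in ad libitum-fed mice. The other 8 macrophage genes summed to 87.0, 32.3, 38.8, 37.7 and 18.9 in CR mice 1 to 5 and to 55.2 to 289 in ad libitum-fed mice. Of the 4 macrophage genes tested, 0 were higher and 2 were lower in CR mice (Ctss and Tyrobp), with a median log2 fold change of −1.40. Of the 5 pericyte and smooth muscle genes tested, 1 was higher (Tagln) and 0 were lower. CR mice 4 and 5 were the lowest CR mice for Igf2, for the pericyte list and for Cd14. The same held for the Schwann cell list (93.7, 41.2, 37.6, 29.4 and 27.5 in CR mice 1 to 5) and the endothelial list. It did not hold for the fibroblast, adipocyte, T cell, B cell, mast cell or epithelial lists. The part of these cells in the Igf2 difference was not tested.

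The receptors were measured at low levels and neither passed the test. Igf1r, the signaling receptor (chr7:67952257-68233668, plus strand), measured 17.1, 11.7, 21.9 and 34.5 normalized counts in mice 2 to 5 fed ad libitum and 35.8, 29.1, 37.6, 20.1 and 28.3 in CR mice 1 to 5. Ad libitum mouse 5 was as high as the upper CR mice, and the diets overlapped. Its log2 fold change was 0.55 (95% interval −0.14 to 1.25, adjusted p = 0.28, limma), an interval that includes both no difference and a more than 2-fold rise. Igf2r, the receptor that clears IGF2 and sorts lysosomal enzymes (chr17:12682406-12769706, minus strand), measured 27.8, 19.5, 25.8 and 18.96 in ad libitum-fed mice and 29.0, 36.4, 20.6, 22.2 and 30.9 in CR mice. The ranges overlapped widely, and the log2 fold change was 0.25 (95% interval −0.36 to 0.86, adjusted p = 0.605). Counts of Igf1 per count of Igf1r were 2.03 ± 0.994 (SD, n = 4) in ad libitum-fed and 2.65 ± 0.204 (SD, n = 5) in CR mice, values that overlapped.

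Igfbp3, the main carrier of IGF in blood and a binding protein with IGF-independent actions, showed the strongest evidence of change among the 10 genes by adjusted p. It measured 552, 409, 455 and 496 normalized counts in mice 2 to 5 fed ad libitum, a mean of 478 ± 60.8 (SD, n = 4), against 1166, 1560, 1522, 716 and 1131 in CR mice 1 to 5, a mean of 1219 ± 343 (SD, n = 5). All CR mice lay above all ad libitum-fed mice, with CR mouse 4 the nearest to them. The log2 fold change was 1.30 (95% interval 0.88 to 1.73), which is 2.47-fold (1.84 to 3.32), with an adjusted p of 0.000182 by limma and an exact permutation p of 0.0159. Igfbp3 passed in each of the 21 alternative analyses, including the scaling to the Fibroblasts list (log2 fold change 0.81, adjusted p = 0.0314) and the thinning of all libraries to the depth of the shallowest.

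Of the other binding proteins, none passed. Igfbp6, which prefers IGF2 (chr15:102144186-102149512, plus strand), came nearest, with 796, 1097, 446 and 1265 normalized counts in mice 2 to 5 fed ad libitum and 1549, 968, 916, 1569 and 1546 in CR mice 1 to 5. CR mice 1, 4 and 5 lay above all ad libitum-fed mice and CR mice 2 and 3 lay among them. The log2 fold change was 0.60 (95% interval 0.06 to 1.15, adjusted p = 0.121), and it passed only without ad libitum mouse 5 (0.80, adjusted p = 0.0408). Igfbp4, which inhibits IGF action until it is cleaved by pappalysin (chr11:99040005-99052655, plus strand), measured 590, 657, 418 and 786 in ad libitum-fed and 774, 652, 488, 709 and 657 in CR mice. The diets covered much the same range, with a log2 fold change of 0.12 (95% interval −0.28 to 0.52, adjusted p = 0.721).

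Igfbp5, known for its rise in the involuting mammary gland (chr1:72858065-72874865, minus strand), measured 143, 230, 122 and 391 normalized counts in mice 2 to 5 fed ad libitum and 313, 322, 197, 154 and 283 in CR mice 1 to 5. Its spread within each diet exceeded the difference between them, and the log2 fold change was 0.29 (95% interval −0.33 to 0.92, adjusted p = 0.55). Igfbp7, a low-affinity IGF binder of the matrix and vessels (chr5:77349240-77408045, minus strand), had the highest level of the 10 genes, at 2329 ± 361 (SD, n = 4) in ad libitum-fed and 2389 ± 288 (SD, n = 5) in CR mice. Its log2 fold change of 0.04 had the narrowest interval of the 10 genes (−0.28 to 0.36, adjusted p = 0.885), which bounds a change of either sign at about 1.3-fold under this scaling. The end of Igfbp7 shares 85 bases in the GENCODE annotation with Polr2b on the opposite strand, a gene that measured 19.6 ± 4.90 and 21.7 ± 6.43 normalized counts.

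Igfbp2, a binding protein of fetal and fat tissue (chr1:72824480-72852474, plus strand), was the only one of the 10 genes with a log2 fold change below 0. It measured 46.7, 29.2, 2.58 and 6.90 normalized counts in mice 2 to 5 fed ad libitum and 9.66, 6.47, 2.94, 21.7 and 10.3 in CR mice 1 to 5, from 2 to 52 recovered molecules. Ad libitum mice 2 and 3 were high and mice 4 and 5 were as low as the CR mice. The log2 fold change of −0.57 had a 95% interval of −2.0 to 0.86 (adjusted p = 0.619), and was 0.01 without ad libitum mouse 2. Igfbp2 and Igfbp5 lie tail to tail on chromosome 1, 5590 bases apart by the RefSeq coordinates, and their mean levels differed by about an order of magnitude or more.

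**Figure D2:**
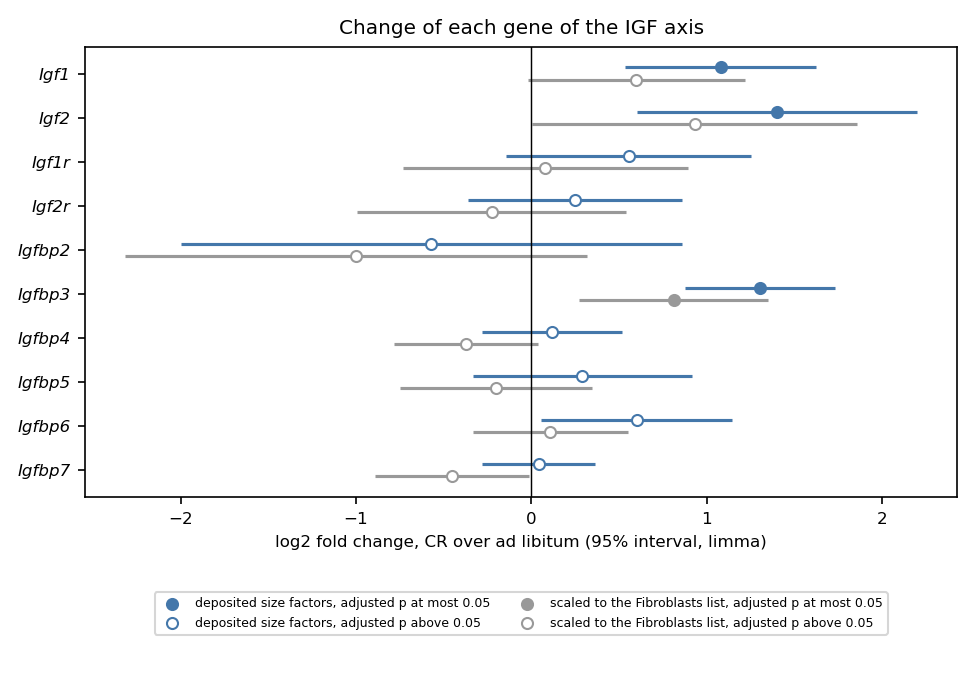
Log2 fold change of each gene, CR over ad libitum-fed mice, with 95% intervals from limma, for the deposited size factors (blue) and for libraries scaled to their summed Fibroblasts list counts (grey). Filled points have an adjusted p of at most 0.05. Igf1, Igf2 and Igfbp3 are filled in blue, and Igfbp3 is the only filled grey point, at 0.81.

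In order of level, Igfbp7 was highest in ad libitum-fed mice, followed by Igfbp6 (901 ± 360), Igfbp4 (612 ± 153), Igfbp3 (478 ± 60.8), Igfbp5 (222 ± 122) and Igf1 (37.9 ± 12.1 normalized counts, SD, n = 4), and then Igf2r (23.0 ± 4.46), Igfbp2 (21.3 ± 20.5), Igf1r (21.3 ± 9.74) and Igf2 (11.9 ± 3.80). In that order the ranges of neighbours did not overlap between Igfbp7 and Igfbp6, between Igfbp3 and Igfbp5 and between Igfbp5 and Igf1, and all other neighbours overlapped. In CR mice, Igfbp3 (1219 ± 343) stood above Igfbp4 (656 ± 106) and next to Igfbp6 (1309 ± 336, SD, n = 5). Igf2 (34.8 ± 14.2) moved from the lowest of the 10 genes to a place between Igf1 (79.1 ± 13.8) and Igf1r (30.2 ± 6.93). Its range did not overlap with that of Igf1 but did with those of Igf1r, Igf2r (27.8 ± 6.48) and Igfbp2 (10.2 ± 7.05).

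The makeup of the binding proteins within a library does not depend on the size factor. Igfbp3 made up 11.5%, 8.10%, 13.1% and 10.02% of the summed counts of the 6 binding proteins in ad libitum-fed mice 2 to 5 (mean 10.7% ± 2.15, SD, n = 4). In CR mice 1 to 5 it made up 18.7%, 24.8%, 29.5%, 12.6% and 19.4% (21.0% ± 6.40, SD, n = 5). CR mouse 4 fell within the ad libitum range and the other 4 CR mice lay above it. The share of Igfbp7 was 51.6% ± 7.82 and 40.9% ± 3.07, that of Igfbp6 19.2% ± 5.57 and 22.4% ± 5.52, and that of Igfbp4 13.3% ± 1.75 and 11.2% ± 1.31 in ad libitum-fed and CR mice. Shares of Igfbp5 (4.74% ± 2.20 and 4.31% ± 1.03) and of Igfbp2 (0.442% ± 0.421 and 0.175% ± 0.125) were small in both diets. Per count of Igfbp7, there were 0.156 to 0.247 counts of Igfbp3 in ad libitum-fed and 0.286 to 0.746 in CR mice, without overlap. This was the only binding protein for which the ratio separated the diets. Counts of Igfbp3 per count of Igfbp2, Igfbp4, Igfbp5 or Igfbp6 overlapped between the diets, although each of these ratios had a higher mean in CR mice. Per 1000 binding protein counts, there were 8.20 ± 1.92 counts of Igf1 in ad libitum-fed and 13.6 ± 2.6 in CR mice, with 10.5 the highest ad libitum and 10.02 the lowest CR value. For Igf2, the numbers were 2.77 ± 1.44 and 5.94 ± 2.29 (SD). Ligand and binding protein counts summed over different cells of a sample say nothing of protein.

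**Figure D3:**
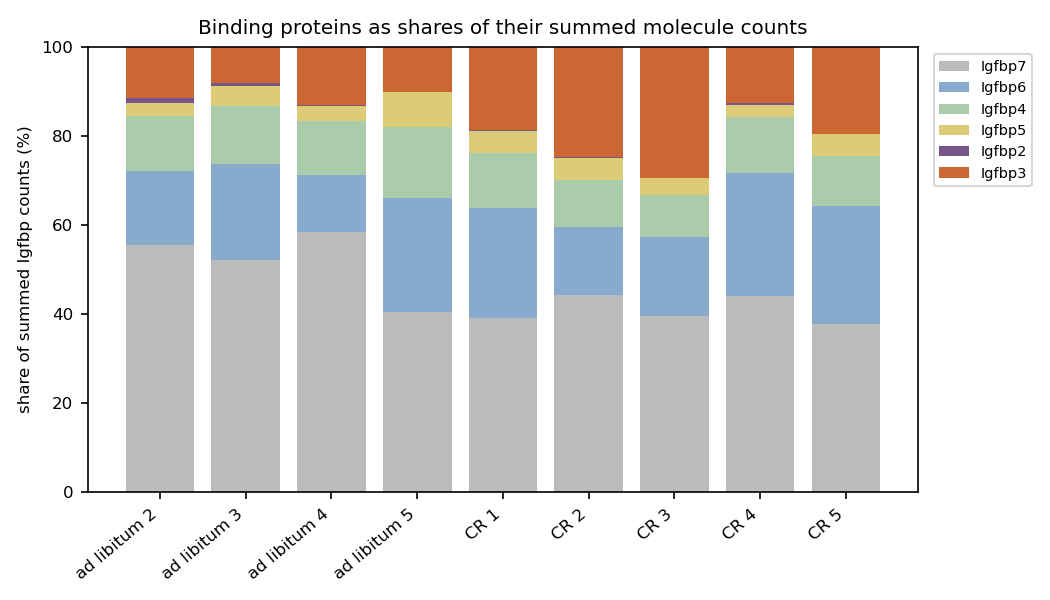
Share of each binding protein in the summed counts of the 6 binding proteins, in percent, with 1 bar per mouse. Igfbp3 (orange, top) takes 8.10% to 13.1% in ad libitum-fed mice and 12.6% to 29.5% in CR mice.

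Within diets, Igfbp4 and Igfbp6 varied together more closely than any other of the 45 pairs of the 10 genes. As a description over 9 libraries, which share the size factors and the mixture of cells, the Pearson correlation of their deviations from the diet means of log2(normalized count + 1) was 0.914 and Spearman's rho was 0.933. It was 0.747 without CR mouse 3 and ad libitum mouse 4, the libraries farthest from the median, 0.987 among the 4 ad libitum-fed and 0.775 among the 5 CR mice. Ad libitum mouse 4, the lowest for both genes, was also the lowest for the Fibroblasts list, and the part of fibroblast content was not tested. Over the 45 pairs the correlation ran from −0.70 (Igf1r with Igfbp2) upwards, and 26 were positive. The 3 genes that rose did not all follow each other within a diet, as the correlation of deviations was −0.03 for Igf1 with Igf2, 0.592 for Igf1 with Igfbp3 and 0.405 for Igf2 with Igfbp3.

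**Figure D4:**
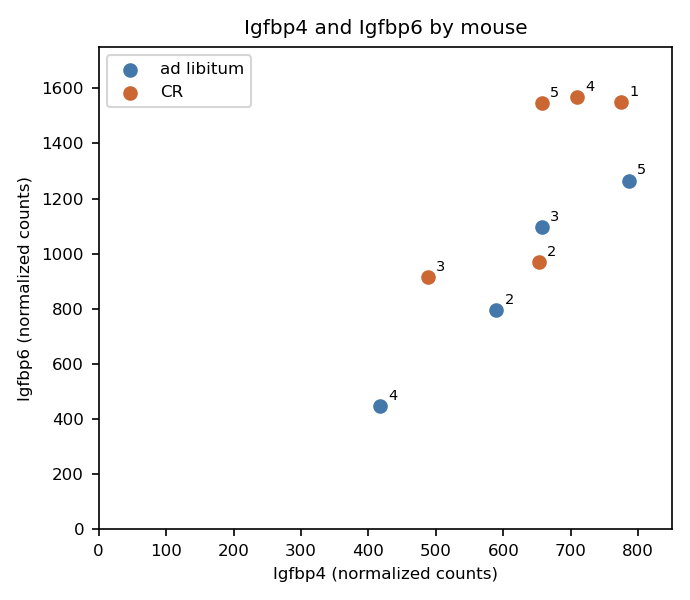
Normalized counts of Igfbp6 against those of Igfbp4, with 1 point per mouse, numbered, for ad libitum-fed (blue) and CR (orange) mice. Both genes are lowest in ad libitum mouse 4, at 418 and 446, and among CR mice in mouse 3, at 488 and 916.

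The genes most like each of the 3 that rose were listed by the Pearson correlation of log2(normalized count + 1) over the 9 libraries. As the diets differ, such genes mostly share the diet difference. For Igf1 they were Lrrc32, which anchors latent TGF-β (r = 0.973), the transcription factor Cebpb (0.972) and the lipid phosphatase gene Ppap2b (0.972). Ppap2b rose from 470 ± 145 to 976 ± 218 normalized counts, by 1.08 on the log2 scale (adjusted p = 0.00175, limma). For Igf2 they were Lrrc75a (0.964), the monoamine oxidase gene Maob (0.935) and the tetraspanin gene Cd151 (0.924), of which Cd151 rose (51.7 ± 7.30 to 100.3 ± 15.0, adjusted p = 0.0045). For Igfbp3 they were Myc, a transcription factor of growth (0.960), Taf1a, a factor of ribosomal RNA transcription (0.953), and the hyaluronan synthase gene Has1 (0.950). Has1 rose from 523 ± 113 to 1340 ± 427 normalized counts, by 1.32 on the log2 scale (adjusted p = 0.000435). By deviations from the diet means, the closest were Mbd1, App and Lrp1 for Igf1 (0.950, 0.942 and 0.937), Pde4b, Tk2 and Zdhhc17 for Igf2 (0.974, 0.971 and 0.964) and Ccdc82, Ociad1 and Epas1 for Igfbp3 (0.961, 0.916 and 0.912). Of these 9 genes only Lrp1, an endocytic receptor, passed the diet test.

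Genes that act with the IGF axis were taken in 8 lists of 94 genes, of which 81 were in the table and 66 were tested. Of these, 19 were higher and 1 was lower in CR mice, with a median log2 fold change of 0.31, beside the 7.98% and 9.14% of all tested genes. At an unadjusted p under 0.05 the numbers were 22 and 4 (Stat5b, Eif4ebp2, Stc2 and Gga3). Counts were 4 higher and 4 lower with scaling to the Fibroblasts list, and 12 higher without CR mouse 1 and without CR mouse 2. The lists were chosen with earlier results of these data known, so their counts beside the overall shares are a description only. Grb10 belongs to both the IGF1R signaling list and the imprinted list.

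Of the binding partners of the IGFBPs in the matrix and at the cell surface, 6 of 9 tested genes were higher and 0 lower (median log2 fold change 0.62). Among all tested genes, 7.98% were higher and 9.14% lower. Itga5, the fibronectin receptor subunit, measured 116, 93.5, 56.7 and 136 normalized counts in mice 2 to 5 fed ad libitum and 197, 155, 248, 247 and 305 in CR mice 1 to 5. The diets did not overlap, and its log2 fold change was 1.22 (adjusted p = 0.00224, limma). The proteoglycan genes Dcn (3729 ± 759 to 5983 ± 462, adjusted p = 0.00473) and Bgn (950 ± 212 to 1449 ± 233, adjusted p = 0.0219), the matricellular gene Thbs1 (231 ± 63.0 to 377 ± 84.6, adjusted p = 0.0259), Lrp1, which binds IGFBP3 (475 ± 119 to 688 ± 93.1, adjusted p = 0.0433), and Itgb1 (85.4 ± 19.5 to 141 ± 38.4, adjusted p = 0.0447) also rose. Between 2 and 6 of these genes passed when 1 library was left out, with 3 left without ad libitum mouse 3 or 4 or CR mouse 3 and 2 left without CR mouse 1 or 2. With scaling to the Fibroblasts list, of which Dcn is itself a member, Itga5 alone passed.

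Proteases that cleave IGFBPs and their inhibitors gave 3 of 8 tested genes higher and 0 lower (median log2 fold change 0.71), and 0 with scaling to the Fibroblasts list. The shares over all tested genes were 7.98% higher and 9.14% lower. Plat, tissue plasminogen activator, rose from 173 ± 58.5 to 330 ± 48.4 normalized counts without overlap (log2 fold change 0.97, adjusted p = 0.00329). Htra3, a serine protease, rose from 450 ± 221 to 985 ± 379 (1.19, adjusted p = 0.0119), with the diets overlapping. Timp1, an inhibitor of metalloproteases, did not pass (0.54, adjusted p = 0.0732).

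Among the kinases and adaptors downstream of IGF1R, 2 of 14 tested genes were higher and 0 lower (median log2 fold change 0.21). Over all tested genes, 7.98% were higher and 9.14% lower. Grb10, an adaptor that restrains insulin and IGF receptors, measured 31.7 ± 19.9 and 62.5 ± 12.6 normalized counts and rose by 1.12 on the log2 scale (adjusted p = 0.0248). Akt2 measured 27.8 ± 6.86 and 53.5 ± 15.7 without overlap (0.91, adjusted p = 0.0274). Grb10 lost the call without ad libitum mouse 2 or 4 or CR mouse 3, 4 or 5 (adjusted p = 0.0501 to 0.0892), and Akt2 without ad libitum mouse 3 or 5 or CR mouse 4 or 5 (0.0591 to 0.0839). Grb10 also did not pass after thinning to equal depth (adjusted p = 0.102, limma), nor did Akt2 with scaling to library totals (0.051). With scaling to the Fibroblasts list neither passed (adjusted p = 0.169 and 0.418). Eif4ebp2, a translational repressor (−0.98, adjusted p = 0.12), Akt1 (0.46, adjusted p = 0.166) and Rheb, the activator of mTOR with the highest level of the list (0.20, adjusted p = 0.588), did not pass. Targets of the FOXO factors, which AKT restrains, gave 1 of 14 higher, near the 7.98% of all tested genes, and 0 lower, with a median of 0.02. The gene was Trib1, which promotes protein breakdown (108 ± 34.7 to 184 ± 14.6 normalized counts, 0.83 on the log2 scale, adjusted p = 0.0193). It did not pass without ad libitum mouse 4 (adjusted p = 0.0551), after thinning to equal depth (0.08) or with scaling to the Fibroblasts list (0.341). Pdk4, a kinase gene of fasting, had a value of 1.0 (adjusted p = 0.0806, and 0.0418 and 0.0421 without CR mouse 4 and 5), Sesn3 −0.90 (adjusted p = 0.166), Sesn1 −0.41 (adjusted p = 0.343) and Txnip 0.08 (adjusted p = 0.826).

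The list for receptor signaling of prolactin and of growth hormone, which acts upstream of Igf1, held the only list gene that fell. Stat5b, the transcription factor through which growth hormone induces Igf1 in liver, measured 82.6, 64.3, 121 and 53.4 normalized counts in mice 2 to 5 fed ad libitum and 39.6, 44.5, 31.8, 29.9 and 26.6 in CR mice 1 to 5. The diets did not overlap, the log2 fold change was −1.15 (95% interval −1.72 to −0.59, adjusted p = 0.00603, limma), and it passed without each library in turn. STAT5B is also expressed by lymphocytes, whose markers fell with CR (T cell sums above), and their part in this difference was not tested. Socs3, a feedback inhibitor of cytokine receptors, rose from 411 ± 53.2 to 802 ± 344 (0.86, adjusted p = 0.0233), with CR mouse 4 within the ad libitum range. It lost the call without ad libitum mouse 3 or 5 or CR mouse 1 or 2 (adjusted p = 0.051 to 0.0656) and with scaling to the Fibroblasts list (0.403). Ghr, the growth hormone receptor gene (0.62, adjusted p = 0.169), and Socs2 (0.49, adjusted p = 0.202) did not pass.

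**Figure D5:**
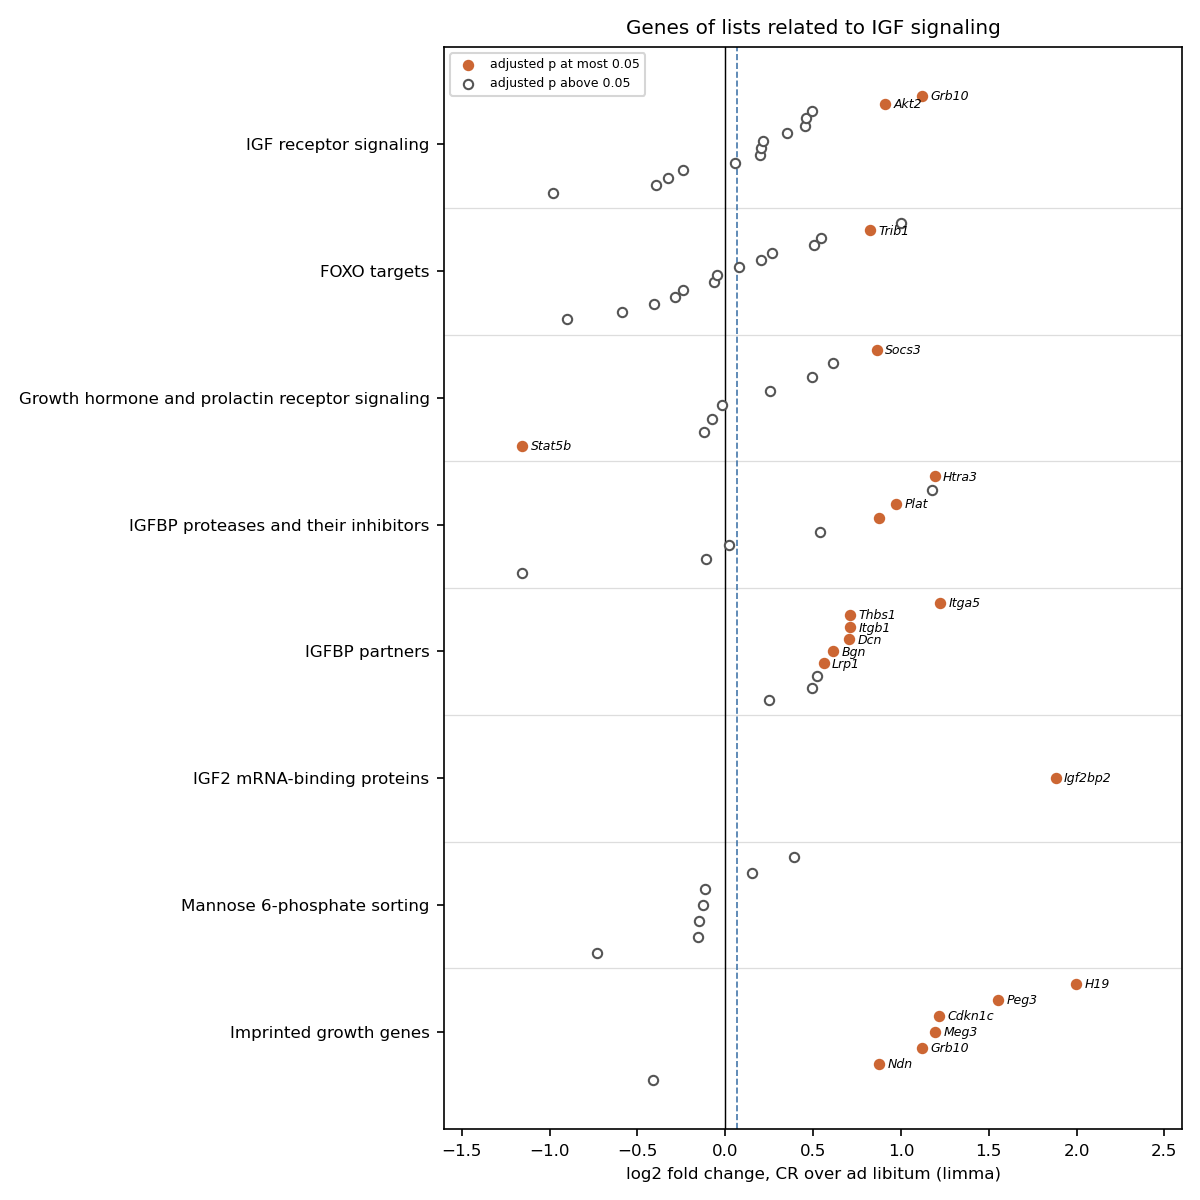
Log2 fold change, CR over ad libitum-fed mice, of the tested genes of 8 lists, with 1 point per gene and the dashed line at the median of all tested genes, 0.07. Filled points have an adjusted p of at most 0.05. The filled points are named except for 1 in the protease list, and the only filled point below 0 is Stat5b at −1.15.

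Of the genes that handle IGF2 and its RNA, Igf2bp2 rose and the sorting genes did not pass. Igf2bp2, which binds Igf2 mRNA and was the only 1 of 3 IGF2 mRNA-binding protein genes in the table, rose from 15.3, 21.4, 6.44 and 17.2 normalized counts in mice 2 to 5 fed ad libitum to 44.5, 48.5, 58.2, 67.1 and 54.0 in CR mice 1 to 5. The lowest CR value, in mouse 1, was far above the highest ad libitum value, in mouse 3. Its log2 fold change was 1.88 (95% interval 1.21 to 2.55, adjusted p = 0.00041), and it was 1.42 (adjusted p = 0.00367) with scaling to the Fibroblasts list. In the mannose 6-phosphate sorting machinery, which Igf2r serves, 0 of 7 tested genes were higher or lower by limma, and 0 by DESeq2 and edgeR (median log2 fold change −0.13). Gga3, a sorting adaptor, had a value of −0.73 (adjusted p = 0.0933) and passed with scaling to the Fibroblasts list (−1.21, adjusted p = 0.0238). It was the only gene of the list at an unadjusted p under 0.05, and Gga1, Gnptg and M6pr had adjusted p-values of 0.434, 0.715 and 0.757.

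Igf2 belongs to the imprinted genes, which are expressed from the allele of a single parent and many of which set fetal growth. Of 7 tested genes of the imprinted list, 6 were higher and 0 lower (median log2 fold change 1.20), 4 to 6 were higher when 1 library was left out, and 2 (Meg3 and H19) were higher with scaling to the Fibroblasts list. The shares over all tested genes were 7.98% higher and 9.14% lower. H19 and Peg3 reached 10 normalized counts only in CR mice, so they passed the filter through the diet in which they were high. With no filter 6 of 10 genes were higher, and with a minimum of 30 normalized counts 4 of 4 were. H19, a noncoding RNA 72621 bases from Igf2 that shares its enhancers, measured 3.59, 5.85, 3.87 and 5.17 normalized counts in mice 2 to 5 fed ad libitum and 22.2, 16.2, 10.6, 24.8 and 43.8 in CR mice 1 to 5. The diets did not overlap, although the ad libitum values were near the limit that 3 counts set, and the log2 fold change was 2.0 (adjusted p = 0.00468). CR mouse 5 was the highest of the 9 for H19 and the lowest CR mouse for Igf2. Cdkn1c, an inhibitor of the cell cycle (58.1 ± 11.4 to 139 ± 39.5, adjusted p = 0.0018), Meg3, a noncoding RNA (155 ± 41.0 to 358 ± 110, adjusted p = 0.00203), and Ndn (74.9 ± 15.7 to 138 ± 28.7, adjusted p = 0.00943) rose without overlap, and Peg3 and Grb10 were the others.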

How the data were processed

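Non-epithelial cells of 9 mice were profiled by a bulk form of MARS-Seq, which counts molecules by identifiers at transcript ends. The authors trimmed reads with cutadapt, aligned them to mm10 with STAR, counted molecules with htseq-count in the last 1000 bases of RefSeq genes, corrected for saturation of the identifiers and normalized with DESeq2. Tool versions were not given in the sources used here. Values were deposited by the authors as signal, the normalized count to 2 decimals. In each library 100% of the values were whole multiples of 1 step within 0.0051, which gave whole counts. Libraries of a diet differed by more than sampling noise (chi-square per degree of freedom of at least 4.06). Samples were grouped by their titles.

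Levels were tested with limma 3.58.1 (trend, R 4.3.3) on log2(normalized count + 1), two-sided, with all 9 libraries and no covariate, over genes with at least 10 normalized counts in 4 libraries. For single genes, exact permutation tests (two-sided, written in Python 3.11.15) compared the mean levels. Spearman's rho came from scipy 1.17.1. The scripts were tested on simulated data. Alternatives were DESeq2 1.42.0 and edgeR 4.0.16 on recovered counts, other scalings, pseudocounts, filters, thinning, left-out libraries and a replicate block. The genes and lists were chosen with earlier results of these data known. Named are all 10 genes, up to 4 genes of each list with the smallest p and the one with the highest level, and for Igf1, Igf2 and Igfbp3 the 3 most alike genes. Itgb1, Lrp1 as a list gene, Peg3 and Stc2 were named after their values were seen, to complete a count. Promoters came from RefSeq tables and matched all 10 genes. Protein sequences were not used here. 1 gene of the protease list, though part of the counts, is not reported here by name.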

Additional observations from a re-analysis of the deposited data

How the results depend on the processing

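Over 21 alternatives, Igfbp3 passed in each and Igf1 in 20, and Igf2 passed in 18 of the 20 in which it was tested. Scaling to the Fibroblasts list had the largest effect. The genes higher and lower over the whole table became 78 and 1158 (from 544 and 623), which is 93.7% lower calls against 53.4%, and 1 of the 10 IGF axis genes was higher. Of the list genes, 4 were higher and 4 lower. The log2 fold change became −0.23 for Igf2r, −0.37 for Igfbp4, −0.20 for Igfbp5 and −0.45 for Igfbp7, each changing sign, and none of these passed. Igf1 (0.60) and Igf2 (0.93) no longer passed. This scaling lowered the median of all genes by 0.48, and the cause of the fibroblast difference was not tested. The other scalings moved that median by at most 0.09. Lower calls made up 62.8% with library totals and 62.0% with DESeq2 (533 higher and 871 lower genes). With library totals Igfbp7 was −0.051.

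Without 1 library, 2 to 4 of the 10 genes were higher and 0 lower, 365 to 607 genes were higher and 501 to 628 lower, and 12 to 16 list genes were higher and 1 lower. Log2 fold changes of Igfbp2 ran from −1.23 to 0.012 (above 0 only without ad libitum mouse 2), those of Igfbp4 from −0.053 (without ad libitum mouse 4) to 0.25, and those of Igfbp7 from −0.025 to 0.11, below 0 without ad libitum mouse 4 (−0.021), ad libitum mouse 5 (−0.025) or CR mouse 2 (−0.015). Igf2 was 1.24 without CR mouse 2 and Igfbp6 0.80 without ad libitum mouse 5, as reported above. With a minimum of 30 normalized counts Igf2 was not tested. The cause of these changes was not tested. Same-numbered mice did not deviate together (correlations of −0.07, −0.02, 0.03 and 0.04 for numbers 2 to 5). Differently numbered mice gave −0.11 to 0.14. The labels do not say what the numbers mean, and so few values cannot show whether they pair the mice. With the replicate block, 3 of the 10 genes were higher and 0 lower, as were 392 and 511 of all genes and 15 and 1 list genes. Low depth limits Igf2, Igfbp2 and the receptors most, with as few as 2 molecules in a library.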
